A study of Homo sapiens with 3 samples.

Results

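SAMSN1, TOMM20, RREB1 and CSMD3 are 4 genes to which several super-enhancers each were assigned in KBM7, a human cell line with a nearly haploid genome that was established from chronic myeloid leukaemia. They were chosen by the number of super-enhancers for which the deposited table names them as target, 3 or more. SAMSN1 and TOMM20 are named for 4 regions each, RREB1 and CSMD3 for 3 each, 14 of the 513 super-enhancers with a named target, and the table holds 518 super-enhancers besides these 14. The table names 462 target genes, of which 422 have 1 region, 32 have 2, 5 have 3 and 3 have 4. The share of targets with 3 or more was therefore 1.73%, 8 genes. The 4 described here were picked from these 8 by name, and the other 4 are JARID2, GSE1, MSN and RUNX1, with 13 regions. The members were thus chosen by measured H3K27ac and input signal, so their number, signal and rank are a description and were not tested. Per the name of the table, a target lies in the same topological domain, is close and is the most expressed by TT-seq, which reads newly made RNA.

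No treatment or genotype is named in the labels. The cells were profiled by chromatin immunoprecipitation and sequencing with 1 library for H3K27ac, 1 for H3K4me3 and 1 for the input, DNA that was not immunoprecipitated. With 1 library per mark there is no replicate error anywhere below, and intervals cover counting error only. Read totals per library are not known here. The fold and p of a peak in the authors' lists give the number of fragments at its summit, with a median of 21 for H3K27ac and 39 for H3K4me3 over the full lists. The fold enrichment is the authors' own value for a peak against its expected background, and it ranks peaks within a single list only. Of 9 myeloid and progenitor markers 9 carried both marks within 1 kb of a start or record end, against 63.3% of protein-coding genes. Of 5 markers of other cells ALB, ACTA1, ELAVL4 and HBB carried neither, while CD3E, a marker of T cells, carried both at an end of its gene record.

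H3K27ac is an acetylation of histone H3 found at active promoters and enhancers, and H3K4me3 is a methylation found mainly at active promoters. A super-enhancer is a long stretch in which neighbouring H3K27ac peaks lie so close that they are joined and ranked by their summed signal. Such regions are known for lying near genes that define a cell type, and a gene can be named for several of them when the acetylated stretch is broken by gaps. The 4 proteins have little in common. SAMSN1 is an adaptor protein with SH3 and SAM domains found in blood cells. TOMM20 is a receptor of the complex that imports proteins into mitochondria. RREB1 is a zinc finger transcription factor that acts downstream of RAS signalling. CSMD3 is a large membrane protein with CUB and sushi domains that is best known from the brain.

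The 14 regions differed in where they lay relative to their gene. Only 3 of 14 overlapped the target gene, namely SAMSN1 regions 1 and 2 and RREB1 region 3, while 66.1% of all super-enhancers with a measured distance did. Another 6 of 14 lay more than 100 kb from the target, where 12.1% of all super-enhancers lay that far. The target was the closest protein-coding gene for 14 of 14 regions and for 80.4% of all, and closeness was part of how targets were chosen. Regions are numbered here by rising coordinate on the hg38 build. For SAMSN1 and TOMM20, which are read from the minus strand, region 1 is therefore the one farthest along in gene direction.

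**Figure D1:**
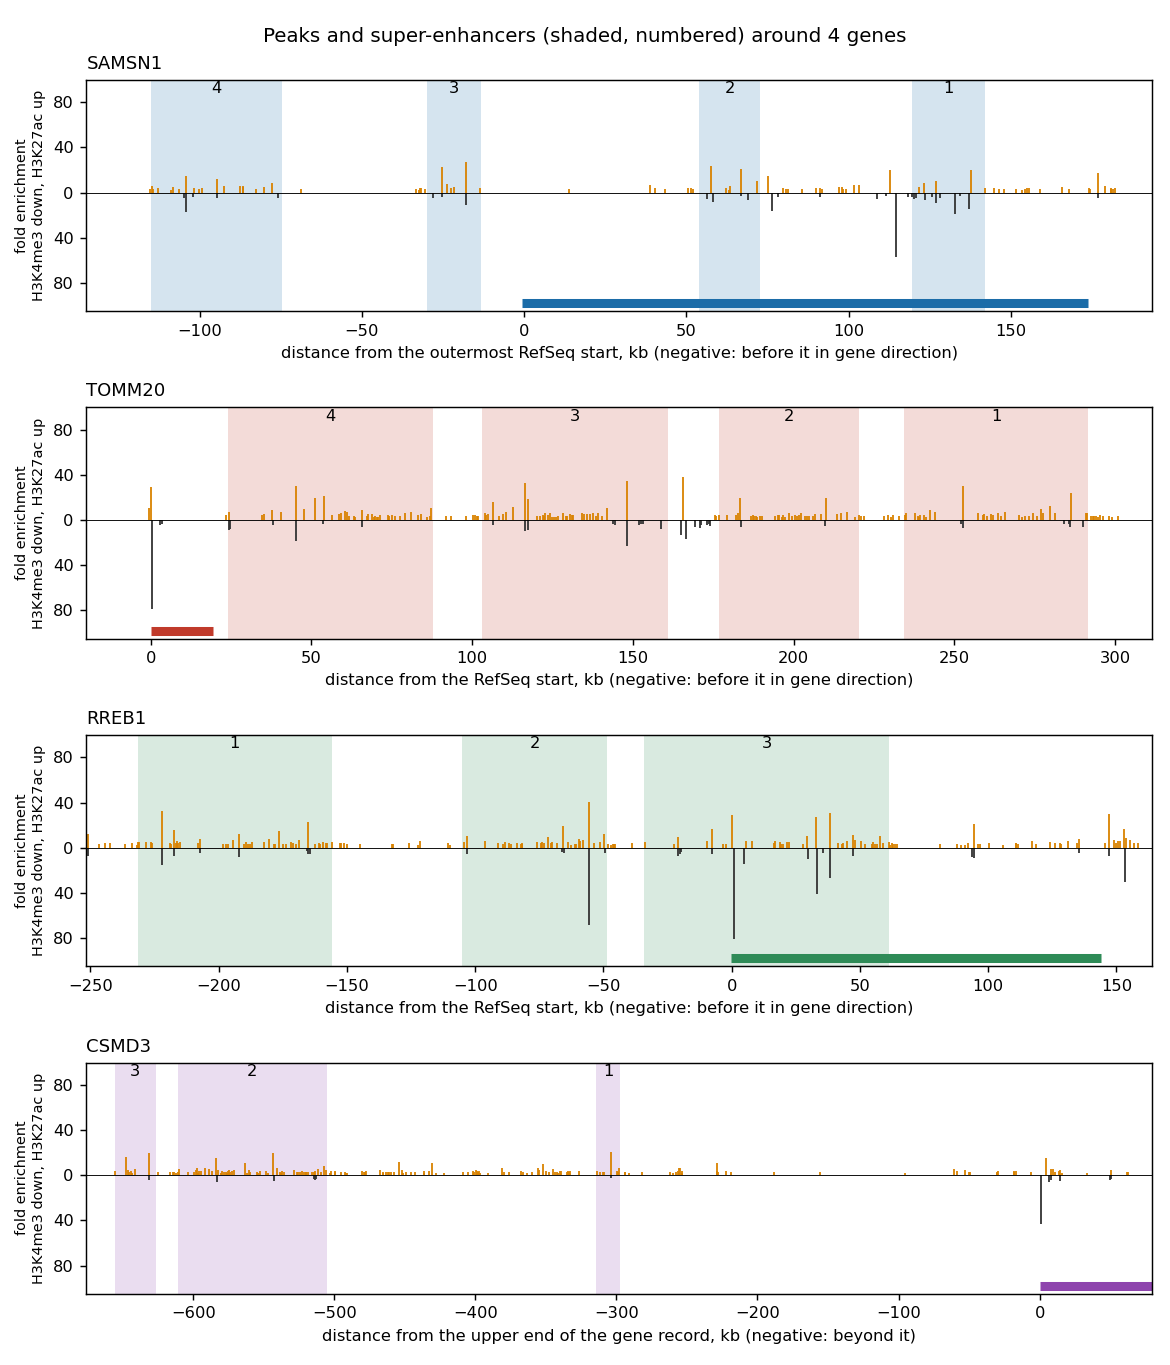
Fold enrichment of H3K27ac peaks (orange, upward) and H3K4me3 peaks (black, downward) at their summits against the distance in kb from the start of SAMSN1 (the outermost of its RefSeq starts), TOMM20 and RREB1 and from the upper end of the CSMD3 record. Shaded boxes are the numbered super-enhancers and the bar at the bottom is the gene record. The regions of SAMSN1 lie inside and before the gene, those of TOMM20 lie beyond its far end, RREB1 has 1 over its start, and those of CSMD3 lie 297 to 627 kb away.

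SAMSN1 has the lowest median region length of the 4 genes, 20.5 kb, and 3 of its 4 regions were almost filled with H3K27ac. The gene spans 174 kb of chromosome 21 (hg38, 14485228 to 14659417). Region 1 lies inside the gene, covers 22.4 kb (14516739 to 14539177) and ranked 209, with an H3K27ac signal of 33916.5 against 3320.97 in the input. Region 2, also inside the gene and partly over the antisense gene SAMSN1-AS1, covers 18.6 kb (14586233 to 14604814) and ranked 392, with signals of 24063.7 and 2235.41. Region 3 begins 12.8 kb beyond the record, before the gene in its direction, covers 16.7 kb (14672208 to 14688864) and ranked 358, with signals of 25352.0 and 2350.30. In these 3 regions H3K27ac peaks covered 96.2%, 92.2% and 96.6% of the length, while the median super-enhancer was covered to 60.5%. Region 4 was of another kind. It lies 74.1 kb from the gene, covers 40.3 kb (14733469 to 14773768) and ranked 455, with signals of 24861.1 and 4916.60 and a cover of 48.7%. The ratio of H3K27ac to input was 10.2, 10.8 and 10.8 in regions 1 to 3 and 5.06 in region 4, and the median of all super-enhancers was 8.11.

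In SAMSN1 regions 1 to 3 the acetylated elements were few and some were wide. These regions were also shorter than the median super-enhancer of 41.6 kb. In region 4 the widest peak was 4963 bp, where the median widest peak of all super-enhancers was 6540.5 bp. Regions 1, 2 and 3 held 5, 6 and 6 H3K27ac peaks and region 4 held 18, while the median super-enhancer held 19. The widest was an interval of 13223 bp in region 1 (fold 19.7, 145 fragments), wider than 99.9% of the list, and only 72 peaks of the list were wider. The strongest was in region 3 (14672969 to 14679531, fold 27.03, 181 fragments) and covers the start of the non-coding LOC105372738. Of the 35 H3K27ac peaks in the 4 regions 9 had a fold of at least 10, called strong here, and 11 overlapped H3K4me3 (31.4%, 95% Wilson interval 18.6 to 48.0). Over all super-enhancers 18.8% of H3K27ac peaks were strong and 19.8% overlapped H3K4me3. Of the SAMSN1 regions, region 1 also carried the most H3K4me3. Its 10 H3K4me3 peaks covered 67.8% of it, where the median super-enhancer had 14.7%. The strongest of them (14524796 to 14530188, fold 18.7) lies 16.1 kb from the nearest start in the RefSeq promoter table, which lacks some genes. Region 1 also overlaps the non-coding LOC124905053, and region 4 the non-coding LOC124905054 and the pseudogene POLR2CP1. The distance of the peaks to these records was not examined.

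SAMSN1 has 4 RefSeq starts, and the marks sat at the 2 that lie farthest inside the gene. At start 1 (position 14546315) an H3K4me3 interval of 6082 bp with a fold of 56.9 and 214 fragments met an H3K27ac interval of 10350 bp with a fold of 19.8 and 136 fragments. At start 2 (14583402), which shares its interval with SAMSN1-AS1, H3K4me3 had a fold of 16.8 and H3K27ac of 14.9. At start 3 (14616456) only a weak H3K27ac peak was listed (fold 3.11, 14 fragments). At start 4 (14658846), the outermost, neither mark had a peak within 1 kb. The strongest H3K4me3 peak of the gene was thus at an inner start. Starts 1 and 2 lie outside the super-enhancers, 7.14 kb from region 1 and 2.83 kb from region 2. Their H3K27ac intervals came closer to the regions. The interval over start 1 begins at 14540991, where region 1 ends at 14539177. The interval over start 2 ends at 14586155, where region 2 begins at 14586233. The 250 bases before starts 1, 2 and 4 are shown because the marks separate them. They come from the RefSeq promoter table (GRCh38.p14), on the minus strand, 5′ to 3′, with motif matches in capitals, at chr21:14546316-14546565, chr21:14583403-14583652 and chr21:14658847-14659096.
SAMSN1 start 1: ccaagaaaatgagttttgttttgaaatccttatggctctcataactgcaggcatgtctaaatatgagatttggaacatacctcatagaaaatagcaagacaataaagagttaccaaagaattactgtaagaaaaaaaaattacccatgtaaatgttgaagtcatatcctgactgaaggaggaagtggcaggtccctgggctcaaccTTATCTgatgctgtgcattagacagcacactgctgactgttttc
SAMSN1 start 2: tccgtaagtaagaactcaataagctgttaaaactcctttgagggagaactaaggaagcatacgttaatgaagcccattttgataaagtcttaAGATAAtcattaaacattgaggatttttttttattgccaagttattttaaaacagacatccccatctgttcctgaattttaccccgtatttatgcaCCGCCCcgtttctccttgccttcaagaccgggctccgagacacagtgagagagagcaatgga
SAMSN1 start 4: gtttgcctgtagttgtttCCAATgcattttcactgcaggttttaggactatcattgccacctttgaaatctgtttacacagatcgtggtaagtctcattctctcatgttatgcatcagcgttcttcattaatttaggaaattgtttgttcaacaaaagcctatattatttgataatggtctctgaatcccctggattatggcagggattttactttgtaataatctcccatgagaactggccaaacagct
Start 1, with the highest H3K4me3 of these starts, has no CpG in these bases and 38% G and C, start 2 has 7 CpG and 39.6%, and start 4 has 2 CpG and 37.6%. Over the 35116 windows of the table the median was 11 CpG and 58%. Of the motifs searched, start 1 held AGATAA on the opposite strand 44 bases before the start. Start 2 held AGATAA 158 bases and GGGCGG, on the opposite strand, 62 bases before it. Start 4 held CCAAT 232 bases before it.

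Within 5 kb of the SAMSN1 record there were 47 H3K27ac and 22 H3K4me3 peaks. Of these, 8 H3K27ac peaks and 4 H3K4me3 peaks were strong, whereas over the full lists 21.2% and 50.4% were. Super-enhancers held 11 of the 47 and 14 of the 22. A strong H3K27ac interval beyond the far end of the gene (14480039 to 14483954, fold 17.5) lay in none of them. The expected background of the H3K27ac peaks in the 4 regions had a median of 4.53 fragments, above the 3.71 of all super-enhancers. Their input signal per base was also high, at 0.148, 0.120, 0.141 and 0.122, where the median of all regions was 0.0996. The part of this background in the values was not tested.

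TOMM20 has the largest summed signal of the 4 genes, though RREB1 has the larger summed length (228 against 223 kb). None of the TOMM20 regions overlaps the gene. The gene is short (19.5 kb, chromosome 1, 235109341 to 235128837) and its 4 regions follow one another beyond its far end over 268 kb, of which they fill 83.2%. Region 4, the nearest, begins 4.61 kb from the record and 24.1 kb from the start, covers 63.9 kb (235040849 to 235104733) and ranked 187, with an H3K27ac signal of 37404.7 against 5321.62 in the input. Region 3 lies 83.7 kb from the gene, covers 57.6 kb (234968009 to 235025655) and ranked 34, the highest rank among the 14, with signals of 76970.3 and 6220.11. These 2 regions differ in ratio, 7.03 in region 4 and 12.4 in region 3. Region 2 lies 157 kb away, covers 43.8 kb (234908356 to 234952106) and ranked 530, with signals of 21796.7 and 4379.48 and a ratio of 4.98. Only 2 super-enhancers ranked below it, and its difference between H3K27ac and input of 17417.3 was just above the lowest of the table, 17397.2. Region 1 lies 215 kb from the gene, covers 57.3 kb (234837177 to 234894484) and ranked 117, with signals of 47370.8 and 6344.00 and a ratio of 7.47. The summed difference of the 4 regions, 161277, placed TOMM20 at 6 of 462 targets, although its best single region ranked 34.

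The TOMM20 regions were built from many peaks with little H3K4me3. They held 144 H3K27ac peaks (33, 36, 37 and 38 in regions 1 to 4) and 24 H3K4me3 peaks. Of the H3K27ac peaks 16 were strong (11.1%) and 13 overlapped H3K4me3 (9.03%, 5.35 to 14.8). Over all super-enhancers these shares were 18.8% and 19.8%. The strongest H3K27ac intervals were in region 3. One of them is 18248 bp wide (234968009 to 234986256, fold 34.3, 230 fragments), contains the start of the non-coding LINC03108 and is exceeded in width by only 16 peaks of the list. The other is 3072 bp wide (235012083 to 235015154, fold 33.3, 201 fragments). Region 1 had an interval of 10462 bp with a fold of 29.9 and region 4 an interval of 4259 bp with a fold of 30.2, both without a protein-coding gene. H3K4me3 was strong at 2 sites only, at LINC03108 in region 3 (fold 23.0) and at 235082753 to 235083821 in region 4 (fold 18.1, 12.9 kb from the start of LINC01348). Among all super-enhancers 85.7% held a strong H3K4me3 peak, and TOMM20 regions 1 and 2 held none.

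The highest H3K27ac fold of the TOMM20 stretch lay between its regions and in none of them. Regions 2 and 3 are 15.9 kb apart, and an H3K27ac interval of 14259 bp (234953677 to 234967935, fold 38.4) fills most of that gap. It leaves at most 1.57 kb free and covers the starts of the long non-coding RNA genes LNCATV and LINC02971. Only 54 peaks of the list were wider, and 98.8% had a lower fold. The gap also held 8 H3K4me3 peaks, the strongest with a fold of 16.4 (234960968 to 234963275) close to the start of LNCATV. The H3K4me3 peak over that start (234963505 to 234964455) had a fold of 13.2. At the start of TOMM20 itself H3K27ac had a fold of 29.3 (2006 bp, 147 fragments) and H3K4me3 a fold of 78.4 (3288 bp, 277 fragments), higher than 93.5% of the list. Within 5 kb of the record there were 4 peaks of each mark, of which 2 H3K27ac peaks and 1 H3K4me3 peak were strong, all at the start. Over the full lists 21.2% and 50.4% were strong. The bases before the starts of TOMM20 and LNCATV are shown because the H3K4me3 fold is far higher at TOMM20, with 78.4 against 13.2. The H3K27ac interval is wider at LNCATV, with 14259 bp against 2006 bp. They lie at chr1:235128838-235129087 and chr1:234964000-234964249, both on the minus strand (RefSeq, GRCh38.p14), with motif matches in capitals.
TOMM20: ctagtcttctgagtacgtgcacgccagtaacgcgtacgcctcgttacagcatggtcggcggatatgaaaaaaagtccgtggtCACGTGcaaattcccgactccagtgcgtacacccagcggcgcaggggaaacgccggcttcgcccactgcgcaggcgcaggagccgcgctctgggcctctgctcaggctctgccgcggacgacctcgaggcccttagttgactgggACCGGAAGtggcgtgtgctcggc
LNCATV: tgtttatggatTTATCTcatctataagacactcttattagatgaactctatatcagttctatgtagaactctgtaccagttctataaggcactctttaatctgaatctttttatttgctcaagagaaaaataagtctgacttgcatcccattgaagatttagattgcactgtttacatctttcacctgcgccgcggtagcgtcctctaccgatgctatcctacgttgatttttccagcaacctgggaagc
The window of TOMM20 has 28 CpG and 63.6% G and C, and that of LNCATV 6 CpG and 38.4%. TOMM20 held CACGTG 168 bases and ACCGGAAG 23 bases before its start, motifs found in 7.26% and 2.17% of all windows. LNCATV held AGATAA, on the opposite strand, 239 bases before its start.

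TOMM20 belongs to the translocase of the outer mitochondrial membrane, and the other genes of that complex carried both marks without a super-enhancer. Of 8 genes on the list, which includes a paralogue of TOMM20, namely TOMM20, TOMM22, TOMM40, TOMM70, TOMM5, TOMM6, TOMM7 and TOMM20L, 8 had both marks at a start or record end, where 63.3% of protein-coding genes did. In all, 462 genes are super-enhancer targets, beside 15812 protein-coding genes tested for both marks at a start. Not every target is among the latter, since CSMD3 has no listed start, so these counts give no exact share. Among the 8 only TOMM20 was a target, and it is on the list because it was chosen as one. H3K4me3 at its start (fold 78.4) lay within the range of the list, from 57.9 at TOMM40, the channel of the complex, to 84.4 at TOMM5. H3K27ac had a fold of 29.3 at TOMM20 and 30.3 at TOMM70, another import receptor, and the lowest was 11.8 at TOMM7.

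RREB1 is the gene whose own start lies in one of its regions. It spans 144 kb of chromosome 6 (7107743 to 7251980) and is read from the plus strand. Region 3 covers 95.5 kb (7073889 to 7169431), of which 61.7 kb are in the gene, and ranked 70, with an H3K27ac signal of 60335.4 against 9544.75 in the input. Region 2 lies 48.4 kb before the gene record, covers 56.4 kb (7002948 to 7059323) and ranked 293, with signals of 30758.7 and 5034.38. Region 1 lies 156 kb before it, covers 75.8 kb (6876347 to 6952112) and ranked 133, with signals of 45474.8 and 7705.40. Their ratios to input were 5.90, 6.11 and 6.32, each below the median of 8.11, and H3K27ac covered 46.5%, 41.7% and 46.7% of them. All 3 were longer than the median super-enhancer of 41.6 kb.

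RREB1 carried the strongest H3K4me3 of the 4 genes. At its start an interval of 4989 bp (7106269 to 7111257) had a fold of 80.8 and 295 fragments, and H3K27ac there had a fold of 28.7 over 5517 bp. The other strong H3K4me3 peaks of region 3 lay inside the gene, 4.06, 28.9, 32.4 and 37.2 kb from the start, with folds of 14.5, 10.2, 41.3 and 27.2. The sites at 28.9, 32.4 and 37.2 kb also had strong H3K27ac, with folds of 10.7, 27.2 and 31.0, the last of them the strongest acetylation within 5 kb of the gene. Region 2 held an H3K4me3 interval of 3063 bp (7050604 to 7053666) with a fold of 68.2 and 237 fragments. Its nearest RefSeq start is that of RREB1, 54.3 kb away, and the region overlaps no RefSeq gene. H3K27ac at the same place had a fold of 40.6 over 3086 bp (187 fragments), the highest H3K27ac fold in any of the 14 regions. Region 1 had its strongest marks at the start of the non-coding LINC03055, where H3K27ac reached a fold of 32.7 and H3K4me3 one of 15.4.

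In total the RREB1 regions held 112 H3K27ac peaks, of which 16 were strong (14.3%) and 17 overlapped H3K4me3 (15.2%, 9.70 to 23.0). They also held 23 H3K4me3 peaks, of which 7 were strong (30.4%). Over all super-enhancers these shares were 18.8%, 19.8% and 30.9%. Within 5 kb of the record there were 61 H3K27ac peaks, 8 of them strong, and 11 H3K4me3 peaks, 5 of them strong. Over the full lists 21.2% of H3K27ac and 50.4% of H3K4me3 peaks were strong. Region 3 held 31 of the 61. Outside it were the strong intervals at 7200591 to 7203635 (fold 21.1) and, just beyond the gene, at 7254071 to 7256593 (fold 30.2). The 250 bases before the start (chr6:7107711-7107960, plus strand, RefSeq, GRCh38.p14) are shown because this is the promoter inside a super-enhancer, again with motif matches in capitals.
RREB1: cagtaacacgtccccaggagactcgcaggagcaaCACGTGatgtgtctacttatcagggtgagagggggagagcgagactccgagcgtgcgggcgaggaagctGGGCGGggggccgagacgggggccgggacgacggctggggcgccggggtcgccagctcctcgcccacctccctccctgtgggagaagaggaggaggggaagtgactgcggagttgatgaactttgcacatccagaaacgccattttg
This window has 20 CpG and 64.8% G and C. It held CACGTG 216 bases and GGGCGG 147 bases before the start. CACGTG is thus in the windows of both TOMM20 and RREB1. The motifs searched on both strands in the windows of 300 bases were CCAAT (in 34.6% of all windows), TATAAA (11.5%), GGGCGG (45.0%), CACGTG (7.26%), AGATAA (10.3%), TGTGGT (13.1%), TGACGTCA (1.85%), ACCGGAAG (2.17%) and the NRF1 motif (1.24%), and no matches overlapped. Matches describe letters only and were not tested for binding.

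Genes around RREB1 in the RAS pathway and among corepressors carried both marks, and 1 of them was a super-enhancer target. Of 14 such genes 14 had both marks at a start or record end, where 63.3% of protein-coding genes did. Their H3K4me3 folds ran from 45.1 at BRAF to 103 at RCOR1, a subunit of a corepressor complex. NRAS, a RAS protein, had a fold of 30.1 for H3K27ac and 83.0 for H3K4me3. SMAD2, a mediator of TGF-beta signalling, was that target, with 1 region. In all, 462 genes are targets, beside 15812 protein-coding genes tested for both marks at a start. Some targets, such as CSMD3, have no listed start, so these counts give no exact share.

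CSMD3 is the member whose regions lay farthest away and on the highest background. The record spans 1214 kb of chromosome 8 (112222928 to 113436939). Region 1 lies 297 kb beyond its upper end, covers 16.9 kb (113734168 to 113751058) and ranked 469, with an H3K27ac signal of 23872.1 against 4428.82 in the input. Region 2 lies 505 kb away, covers 105.67 kb (113942374 to 114048043) and ranked 55, with signals of 78840.4 and 22571.1. Region 3 lies 627 kb away, covers 29.2 kb (114063452 to 114092699) and ranked 88, with signals of 52184.3 and 6969.80. The 3 regions overlap no RefSeq gene of any kind. CSMD3 was nevertheless the closest protein-coding gene, since the next, TRPS1, is 1316 kb from region 3.

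Input in the CSMD3 regions was about as high as anywhere in the table. It was 0.262, 0.214 and 0.238 per base, places 1, 9 and 2 in the whole table. The 39 super-enhancers of chromosome 8 had a median of 0.196 and the other 493 a median of 0.0980. Of those others, the 25 on chromosome 15 had a median of 0.172 and a highest value of 0.225. The KBM7 line is known to carry an extra copy of chromosome 8. The expected background of the H3K27ac peaks in the 3 regions had a median of 8.16 fragments, where all super-enhancers had 3.71. Beside this the ratio of H3K27ac to input was 5.39, 3.49 and 7.49. Ordered by ratio, region 1 was at place 469, region 2 at 531 and region 3 at 314. Ordered by the difference per base, they were at 66, 418 and 15, so regions 1 and 3 stood higher by this measure than by the difference and region 2 lower. Among the 39 regions of chromosome 8 alone, they were at places 36, 5 and 10 by the difference and 18, 38 and 9 by the ratio. How far copy number sets these ranks was not tested.

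**Figure D2:**
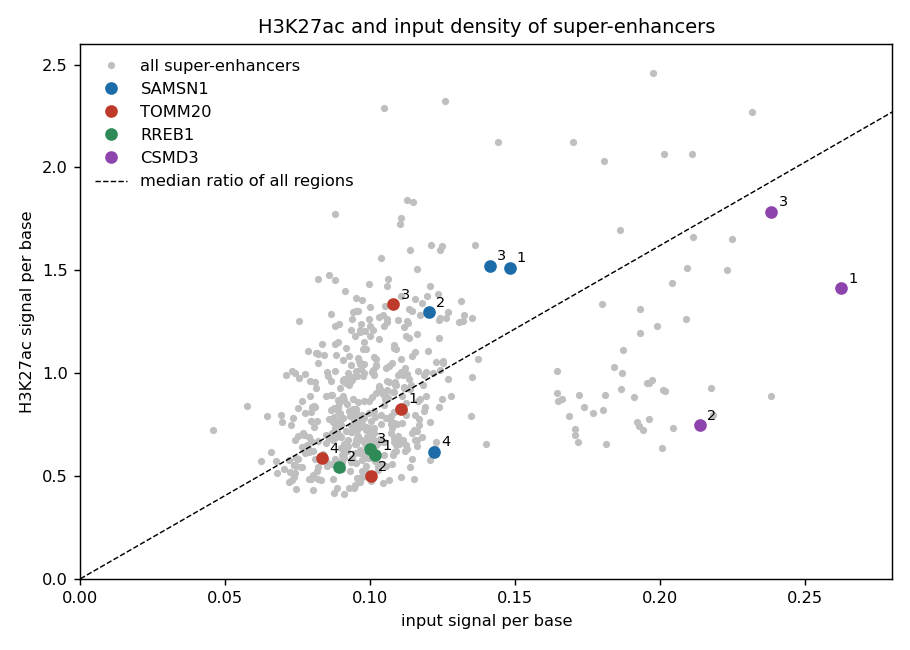
H3K27ac signal per base against input signal per base for all super-enhancers (grey) and the numbered regions of the 4 genes (coloured), with a dashed line at the median ratio of 8.11. The 3 CSMD3 regions lie to the right at an input of 0.214 to 0.262, and SAMSN1 regions 1 to 3 and TOMM20 region 3 lie above the line.

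CSMD3 regions carried acetylation nearly without H3K4me3. They held 71 H3K27ac peaks (8, 55 and 8), of which 6 were strong and 6 overlapped H3K4me3 (each 8.45%, 3.93 to 17.2). Over all super-enhancers these shares were 18.8% and 19.8%, and 30.9% of H3K4me3 peaks were strong. The 7 H3K4me3 peaks of the CSMD3 regions had folds of at most 5.74, so none was strong. They covered 1.10%, 2.66% and 0.704% of the regions. The lowest of these values stands beside a median of 14.7% over all super-enhancers. The expected background of these H3K4me3 peaks had a median of 5.67 fragments, where all super-enhancers had 3.11. The part of the background of either mark in these folds and shares was not tested. The strongest H3K27ac intervals of the 3 regions had folds of 20.7 in region 1 (7312 bp, 196 fragments), 19.6 in region 2 (5835 bp, 232 fragments) and 20.2 in region 3 (14274 bp, 168 fragments). Region 3 was filled to 89.3% with H3K27ac, region 1 to 64.5% and region 2 to 45.0%.

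At the gene itself the strong peaks of CSMD3 lay at its upper end. An H3K4me3 interval of 10901 bp (113430849 to 113441749, fold 43.5, 286 fragments) met an H3K27ac interval of 13384 bp (fold 15.8, 229 fragments). Only 10 peaks of the H3K4me3 list were wider. These were the only strong peaks within 5 kb of the record, among 15 H3K27ac and 7 H3K4me3 peaks. Over the full lists 21.2% and 50.4% were strong. Peaks covered 1.62% and 1.21% of the window around CSMD3. The related genes CSMD1 and CSMD2 had neither mark within 1 kb of a start or record end. Of the adaptor family of SAMSN1, SASH3 had both marks (folds 38.3 and 68.2), SASH1 had H3K4me3 only (fold 13.8), and neither is a super-enhancer target.

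**Figure D3:**
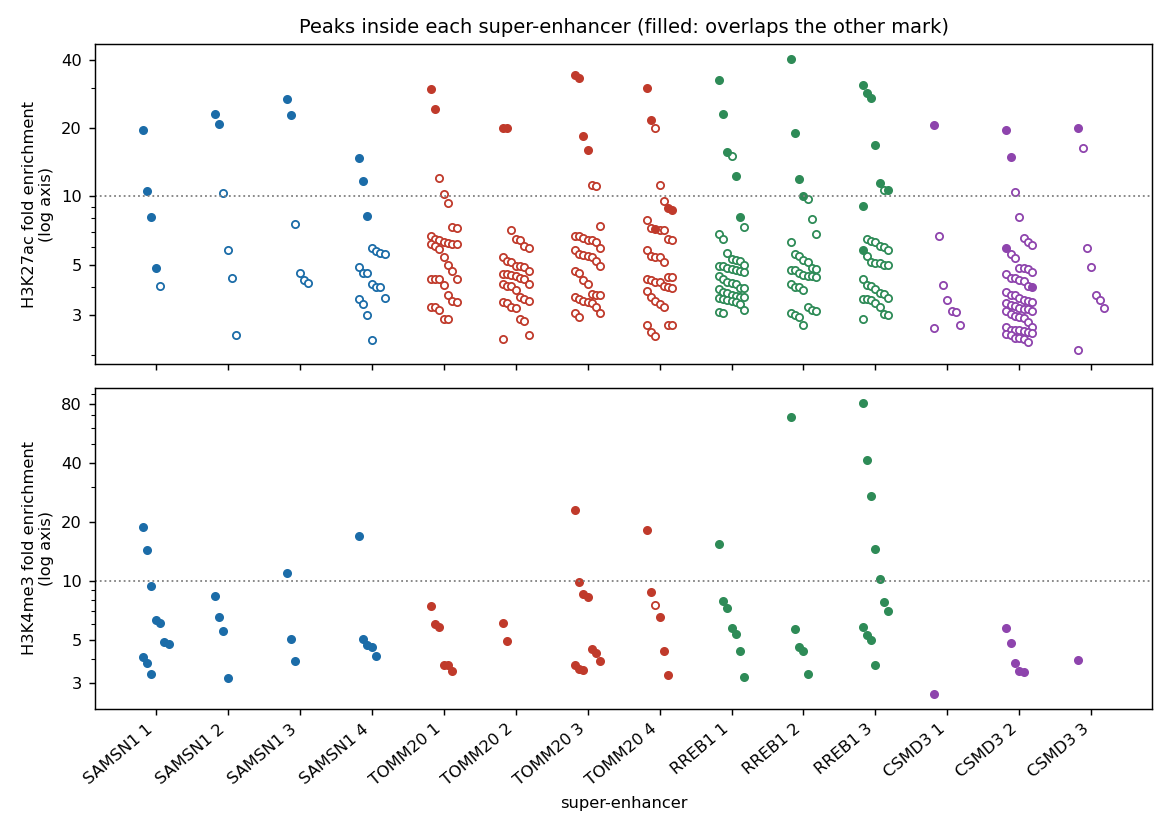
Fold enrichment (log axes) of every H3K27ac peak (top) and H3K4me3 peak (bottom) in each of the 14 regions, filled where the peak overlaps the other mark, with a dotted line at a fold of 10. H3K4me3 passes 10 at 13 peaks in 8 regions, 5 of them in RREB1 region 3, and at none in the CSMD3 regions.

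Set side by side, the 14 regions had a lower median H3K4me3 cover and a lower median ratio to input than the other super-enhancers. The regions of SAMSN1 taken alone did not. The median length of the 14 regions was 50.1 kb (16.7 to 105.67 kb), where the other 518 had 41.3 kb. Their median H3K27ac signal per base was 0.786, where the others had 0.819. The median ratio to input was 6.68 (3.49 to 12.4), where the others had 8.17, and it was 7.03 without CSMD3. H3K4me3 covered a median of 6.50% of the 14 regions and 14.9% of the others, and 10.7% without CSMD3. Of their 362 H3K27ac peaks 47 overlapped H3K4me3 (13.0%, 9.91 to 16.8), while 19.8% (19.1 to 20.5) of those in all super-enhancers did. The share was 14.1% without CSMD3. Of their 76 H3K4me3 peaks 13 were strong (17.1%, 10.3 to 27.1), where the background over all super-enhancers was 30.9%, and 8 of the 14 regions held a strong one. Of all super-enhancers 85.7% did, and of the 13 regions of the other 4 genes with 3 or more 7 did (53.8%). Of these 13 peaks 3 had a RefSeq start within 1 kb, at LINC03108, LINC03055 and RREB1, beside 29.7% of such peaks on the chromosomes of the promoter table. The 13 regions of JARID2, GSE1, MSN and RUNX1 had a median ratio of 6.49, an H3K4me3 cover of 4.54% and an overlap of 11.8% (8.95 to 15.4), and 31.9% of their H3K4me3 peaks were strong. Among the 4 genes, SAMSN1 went the other way in its medians, with a ratio of 10.49 and an H3K4me3 cover of 17.3%. The cover was 67.8% and 20.7% in its regions 1 and 2 but 13.9% and 10.7% in regions 3 and 4. Of its H3K27ac peaks 31.4% (18.6 to 48.0) overlapped H3K4me3, while 18.2% of its H3K4me3 peaks were strong. With the top 50% of each list by fold, that overlap was 13.6%, below the 16.3% of all super-enhancers. When the overlap had to cover at least 50% of the H3K27ac peak, it was 11.4%, above the 7.74% of all. TOMM20, RREB1 and CSMD3 each had a median ratio and a median cover below those of the other super-enhancers. These differences were not tested, because peaks of 1 library are not replicates.

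**Figure D4:**
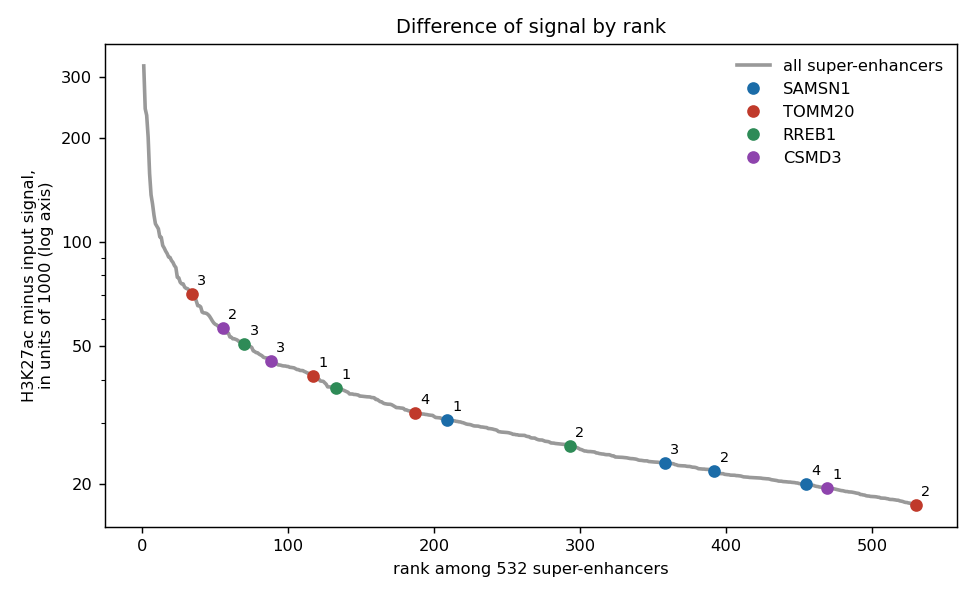
Difference between H3K27ac and input signal (log axis, in units of 1000) by rank for all super-enhancers (grey line), with the 14 regions marked by gene and number. They run from rank 34 (TOMM20 region 3) to rank 530 (TOMM20 region 2).

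The regions of a gene could stand far apart in rank. The 4 regions of TOMM20 ran from 34 to 530, the 3 of CSMD3 from 55 to 469 and the 3 of RREB1 from 70 to 293, while the 4 of SAMSN1 ran from 209 to 455. By summed difference TOMM20 was at place 6 of 462 targets, CSMD3 at 13, RREB1 at 14 and SAMSN1 at 22. SATB1 and SLC39A10, the genes with 2 regions and thus just outside the choice that had the largest totals, were at places 1 and 3. Among the other targets with at least 2 regions, likeness was measured as the distance in log2 summed length, log2 summed difference and log2 ratio. SAMSN1 was nearest to SMYD3 (distance 0.14) and RPTOR (0.37). TOMM20 was nearest to GSE1 (0.56) and ZNF217 (0.61). RREB1 was nearest to JARID2 (0.20) and MSN (0.49). CSMD3 was nearest to GNAQ (0.57) and PRAG1 (0.61). These distances describe 1 library and its input.

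The 4 regions of TOMM20, and single pairs of regions of RREB1 and CSMD3, were set apart by gaps of under 20 kb, while all gaps of SAMSN1 were longer. In the table the first and last peak of every super-enhancer had a −log10 p of at least 9.01, and inside super-enhancers peaks of 9 or more were at most 12444 bp apart. Of the 10 gaps between neighbouring regions of the 4 genes, 4 were only slightly longer and held no peak of 9 or more. They were 13.9 kb (TOMM20 regions 1 and 2), 15.2 kb (TOMM20 regions 3 and 4), 14.6 kb (RREB1 regions 2 and 3) and 15.4 kb (CSMD3 regions 2 and 3). The gap filled by the LNCATV interval was 15.9 kb. Between SAMSN1 regions 1 and 2 (47.1 kb) lay 6 such peaks, 2 of them at SAMSN1 starts, and the longest free stretch was 17.4 kb. Between CSMD3 regions 1 and 2 (191 kb) lay 21 such peaks, the strongest with a fold of 12.0, and the longest free stretch was 27.8 kb. The remaining gaps were 67.4 and 44.6 kb at SAMSN1 and 50.8 kb at RREB1.

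**Figure D5:**
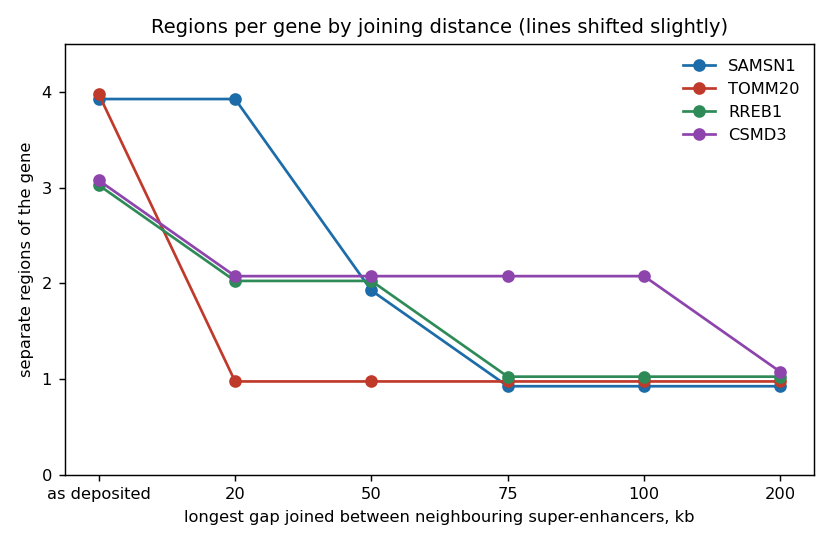
Number of separate regions left for each of the 4 genes when neighbouring super-enhancers are joined over gaps of up to 20, 50, 75, 100 or 200 kb (points shifted slightly so that they do not cover each other). TOMM20 goes from 4 regions to 1 at 20 kb, while SAMSN1 keeps 4 at 20 kb and CSMD3 keeps 2 up to 100 kb.

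When super-enhancers up to 20 kb apart were joined, TOMM20 had 1 region, RREB1 and CSMD3 had 2 each and SAMSN1 still had 4. At 50 kb SAMSN1 had 2, and at 75 kb SAMSN1, TOMM20 and RREB1 had 1 each and CSMD3 had 2. At 20 kb the whole table was left with 515 regions, and the number of genes with 3 or more fell from 8 to 5. At 100 kb the joined stretch of TOMM20 also took in a region of another target, and at 200 kb those of 2 other targets, while that of RREB1 then took in a region of 1 other target.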

How the data were processed

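The 4 genes and the lists were chosen with earlier results of these data known. The submitters' processing notes name hg38, Bowtie2 2.3.4 and bedtools 2.20.1. The sources used here do not name the peak caller or the way super-enhancers were ranked. Deposited peak lists give the fold (a ratio to the expected background), the −log10 of p and q, a score of 10 times the −log10 q, and the summit. The authors called each list on 1 immunoprecipitated library. Per the file headers, the super-enhancer table gives a total H3K27ac signal, a total input signal, their difference (a score without stated scaling), the rank and the target.

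Peaks counted as inside a region with at least 1 bp of overlap. Fragments and background came from fold and p, with (fragments + 1)/(background + 1) as the fold and a Poisson tail as p, and fitted 100% of the peaks of both lists within 0.01. The recovery was checked on simulated data. Gene records and starts came from RefSeq (GRCh38.p14), where all 4 genes were found by symbol. Its promoter windows cover 3 of the 4. For genes without an entry in it, both ends of the record stood in for starts. Another 2 genes of the lists are not reported here. Shares have 95% Wilson intervals. No test was run, since each mark has 1 library. The text names the 4 genes, the genes their regions overlap or lie near, the listed families, other genes with 3 or more regions and the 2 most alike targets. Python 3.11.15, pandas 2.3.3 and scipy 1.17.1 were used.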

Additional observations from a re-analysis of the deposited data

How the results depend on the processing

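No paired analysis was possible because each mark has 1 library and no test was run. With the top 50% of each list by fold, the peaks inside the 14 regions fell to 183 for H3K27ac and 13 for H3K4me3, the peaks within 5 kb of the 4 records to 52 and 11, and the share of H3K27ac peaks that overlap H3K4me3 to 6.56% (16.3% over all super-enhancers). With peaks of a −log10 p of at least 9, an alternative chosen after seeing the data, the regions held 216 and 47. When the overlap had to cover at least 50% of the H3K27ac peak, the share was 3.04% (7.74% over all super-enhancers). The median rank of the 14 regions, 198 by the difference, was 380.5 by the ratio to input and 339.5 by the difference per base. The median distance of the 11 regions of SAMSN1, TOMM20 and RREB1, 48.4 kb from the record, was 76.8 kb from the middle of the region to the nearest start, and was not computed for CSMD3. Joining, also chosen after seeing the data, left 9 regions at 20 kb, 7 at 50 kb, 5 at 75 and at 100 kb and 4 at 200 kb. By construction, fewer peaks or regions enter in the first, second and last of these, and fewer peaks count as overlapping in the third. For the others the cause was not tested. Another 13 values for the 4 genes together stayed within 1.5 times or within their interval, and of 100 for single genes or regions 52 did.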

Other observations

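Other protein-coding genes beside the regions also carried strong marks at their starts, a list chosen after seeing the data. IRF2BP2, a transcriptional corepressor on the far side of the TOMM20 stretch, lies 227 kb from TOMM20 region 1, which is 215 kb from TOMM20. IRF2BP2 had an H3K27ac interval of 13070 bp (fold 37.5) and an H3K4me3 interval of 10829 bp (fold 60.2) at its start. It has a super-enhancer of its own at rank 224, 98.1 kb from TOMM20 region 1, and TARBP1 has one at rank 167, 272 kb away. NRIP1, a nuclear receptor corepressor, lies 187 kb from SAMSN1 region 4 and had folds of 36.7 for H3K27ac and 75.2 for H3K4me3 at a start, with no super-enhancer assigned.

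LY86, which encodes a partner of a Toll-like receptor homologue on blood cells, lies 221 kb from RREB1 region 1. It had a fold of 45.8 for H3K27ac over 12330 bp and of 25.0 for H3K4me3 at its start. Its own super-enhancer, 130 kb long, ranked 10 and ends 148 kb before RREB1 region 1. SSR1, on the other side of RREB1, had folds of 29.1 and 77.0 and no super-enhancer, and RBM34, next to TOMM20, had 24.8 and 74.1 and none either. The distances to these genes describe position only, and contact between regions and genes was not analysed here.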
